A study of Salvelinus alpinus with 144 samples.

Results

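The gene igdcc3 was 1 of 42433 genes in the count table of whole Arctic charr (Salvelinus alpinus) embryos, found there by its symbol, and 1 of the 40311 genes with enough reads to be tested. It was singled out with its levels in these embryos already known, so its own levels and differences are described below with no test. The embryos came from crosses within and between 2 sympatric morphs of lake Thingvallavatn, the small benthic (SB) and the planktivorous limnetic (PL) charr. With the mother's morph named first, these were the reciprocal hybrids SBxPL and PLxSB and the pure crosses SBxSB and PLxPL. Each cross type had 3 families from wild parents, and 3 siblings per family were taken at 200 and at 150 τs, an age scale that corrects days of development for temperature. This gave 9 embryos in each of 8 groups, all reared in a common tray, and each of the 72 embryos gave 1 mRNA and 1 small RNA library. Embryos are named by family (1 to 3) and by the letter of the sibling (A, B or C). Siblings share their parents and were treated as replicates, so the spread within a group covers 3 families only.

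The mRNA totals ranged from 11969598 to 17133123 reads per embryo (median 15922750). Levels are CPM, read counts scaled to library size after TMM normalization, a step that sets libraries on a common footing. Transcript length does not enter CPM, so levels are compared between embryos, not between genes. Whole embryos were sequenced: the skeletal muscle markers mylpf and myog, the cartilage markers col11a2, hapln1 and matn1 and the lens marker cryaa all had reads in 72 of 72 libraries, and the lists of neural and red blood cell markers could not be matched by symbol. In such bulk RNA, fewer cells that express a gene and less RNA per cell cannot be told apart.

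igdcc3, also called Punc, encodes a membrane receptor of the immunoglobulin superfamily, in the subgroup of DCC (deleted in colorectal cancer), neogenin, protogenin and igdcc4. In mouse embryos, Punc is known from the early nervous system and the limb buds, and its level declines as development goes on. In mammals its messenger RNA is among the known targets of let-7, a family of microRNAs that accumulate as embryos mature and that repress genes of earlier stages. The charr table also holds a pair of genes annotated as immunoglobulin superfamily DCC subclass member 3-like, LOC111950271 and LOC111956165, here called the igdcc3-like genes. Members of a duplicated gene family can share reads. The counting settings stated by the study name no option to count reads that match several copies, so such reads may have been left out. Reads placed on the wrong copy would still be counted, so the division of reads among the 3 genes is uncertain.

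igdcc3 was nearly silent at the later time point. At 200 τs, an embryo had between 0 and 8 igdcc3 reads, 88 in all 36 embryos together, and the level ranged from 0 to 0.621 CPM with a median of 0.147 CPM. At 150 τs, an embryo had between 17 and 1355 reads, and the level ranged from 1.05 to 84.5 CPM with a median of 3.07 CPM. The times did not overlap: the lowest embryo at 150 τs, SBxPL family 3 C with 1.05 CPM, lay above the highest at 200 τs, PLxPL family 3 A with 0.621 CPM. The share of all genes that separate the times in this way was not counted. At 200 τs, 3 libraries had no igdcc3 read, PLxPL family 1 A and C and PLxSB family 2 B. With 3 reads as the upper limit for a count of 0, each of them allows up to 0.195 to 0.209 CPM, and this limit covers counting error only.

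The difference between times was found in each of the 12 families. Family means at 200 τs ranged from 0.0492 CPM (PLxPL family 1) to 0.339 CPM (PLxPL family 3), and at 150 τs from 1.496 CPM (SBxSB family 2) to 32.5 CPM (SBxSB family 3). Ratios of summed reads, scaled for depth, put the level at 150 τs above that at 200 τs by between 7.77-fold (PLxPL family 2; 95% exact counting interval 4.03 to 16.8) and 194-fold (SBxSB family 3; 98.5 to 451). PLxPL family 1, with only 2 reads at 200 τs, had a ratio of 82.0 with an interval of 22.4 to 682. The other 9 families lay between 8.66-fold and 26.2-fold. Over all families, the fitted difference of 200 minus 150 τs was −4.62 on the log2 scale, with the 4 cross types weighted equally. In that comparison 69.3% of all genes tested passed the threshold, an adjusted p under 0.1 by edgeR's quasi-likelihood test with Benjamini-Hochberg adjustment, and 34.3% passed it as lower at 200 τs.

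**Figure D1:**
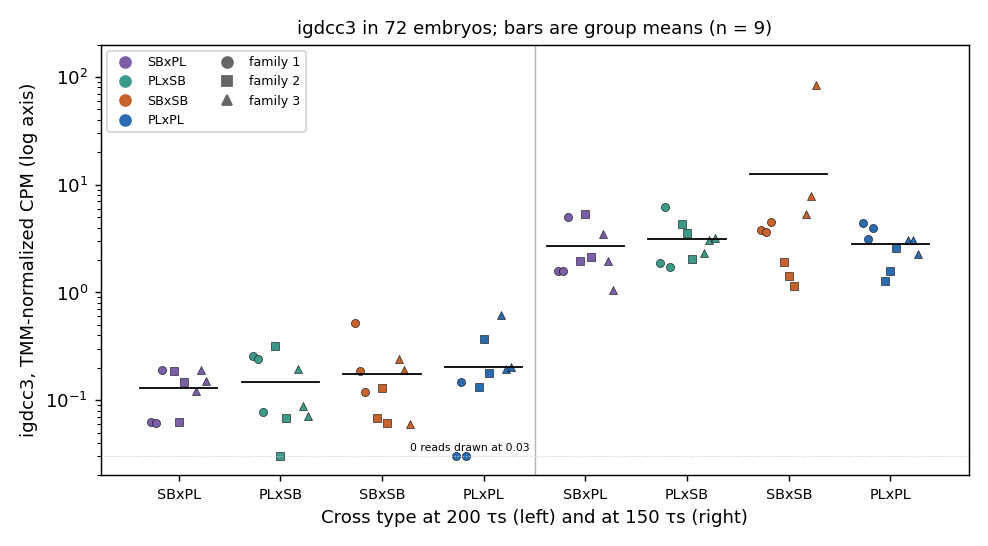
igdcc3 level of each embryo (TMM-normalized CPM, log axis) by cross type, at 200 τs on the left and 150 τs on the right; symbols mark the family, bars the mean of 9 embryos, and libraries with no read are drawn at 0.03. The 2 times do not overlap, and 1 SBxSB embryo at 150 τs, with 84.5 CPM, stands above the other 35, which lie between 1.05 and 7.84 CPM.

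At 150 τs, the cross types overlapped except for single embryos of 1 SBxSB family. In SBxPL, igdcc3 ranged from 1.05 to 5.34 CPM with a median of 1.97 CPM, and averaged 2.68 ± 1.57 CPM (SD, n = 9). In PLxSB, it ranged from 1.71 to 6.19 CPM with a median of 3.05 CPM, and averaged 3.15 ± 1.44 CPM (SD, n = 9). In SBxSB, it ranged from 1.14 to 84.5 CPM with a median of 3.78 CPM, and averaged 12.7 ± 27 CPM (SD, n = 9). In PLxPL, it ranged from 1.28 to 4.39 CPM with a median of 3.09 CPM, and averaged 2.82 ± 1.02 CPM (SD, n = 9). Both the highest median and the highest mean were those of SBxSB, and the lowest were those of SBxPL. PLxSB and PLxPL changed places between the order of the means and that of the medians, and no neighbours in either order differed by more than the larger of their SDs. The mean of SBxSB exceeded that of PLxSB by more than the PLxSB SD. The SBxSB SD of 27 CPM rested on 1 embryo with 84.5 CPM.

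The high values of SBxSB came from 1 of its families. Family 1 had 3.78, 3.66 and 4.55 CPM in embryos A, B and C, and family 2 had 1.92, 1.42 and 1.14 CPM, with no overlap between these families. Family 3 had 5.31 and 7.84 CPM in embryos A and B, and 84.5 CPM, or 1355 reads, in embryo C. Embryo C was thus 10.8-fold above its sibling B, which was itself the second highest of the 36 embryos with 131 reads. Without embryo C, SBxSB averaged 3.70 ± 2.25 CPM (SD, n = 8), and without B and C it averaged 3.11 ± 1.62 CPM (SD, n = 7). Family 2 of SBxSB and family 2 of PLxPL were low in all 3 siblings (1.14 to 1.92 CPM in SBxSB and 1.28 to 2.59 CPM in PLxPL). Single siblings stood out in some hybrid families as well: in PLxSB family 1, embryo B had 6.19 CPM beside 1.88 and 1.71 CPM in A and C, and in SBxPL family 1, embryo C had 5.06 CPM beside 1.58 CPM in both siblings.

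The fitted differences between cross types at 150 τs rested on the high SBxSB embryos. igdcc3 was lower in SBxPL than in SBxSB by a log2 difference of −2.25, lower in PLxSB than in SBxSB by −2.01, and higher in SBxSB than in PLxPL by 2.17. Between the hybrids and PLxPL, the differences were −0.08 for SBxPL and 0.16 for PLxSB. Without embryo C of SBxSB family 3, the differences became −0.48 for SBxPL minus SBxSB, −0.24 for PLxSB minus SBxSB and 0.40 for SBxSB minus PLxPL. Without embryos B and C they became −0.22, 0.01 and 0.15 in the same order, and without the whole family −0.04, 0.19 and −0.03. The 5 comparisons at one time share their groups, so the high embryos enter each of those with SBxSB.

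The labels tie the letter of the sibling to a sequencing batch, while the study's methods describe such batches for the small RNA and a joint run for the mRNA. The comparison was repeated within letters. Among embryos A at 150 τs, igdcc3 averaged 3.67 CPM in SBxSB and 2.92 CPM in PLxPL. Among embryos B, the means were 4.31 CPM in SBxSB and 2.62 CPM in PLxPL, and among embryos C they were 30.0 CPM in SBxSB and 2.93 CPM in PLxPL. SBxSB had the higher mean in all 3 letters, with log2 ratios of 0.33, 0.72 and 3.36 for A, B and C. Each of these means covers 1 embryo per family, and the direction rested on SBxSB family 3. Without that family, the SBxSB means were 2.85, 2.54 and 2.84 CPM for A, B and C, against the same PLxPL means, with log2 ratios of −0.03, −0.04 and −0.04.

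At 200 τs, the cross types overlapped, at 0 to 8 reads per embryo. igdcc3 averaged 0.130 ± 0.0556 CPM in SBxPL, 0.147 ± 0.109 CPM in PLxSB, 0.175 ± 0.144 CPM in SBxSB and 0.205 ± 0.191 CPM in PLxPL (SD, n = 9 each), from 18, 19, 25 and 26 reads per group. The family with the 1355-read embryo had 4, 3 and 1 reads at this time. Fitted log2 differences were −0.40 for SBxPL minus SBxSB, −0.21 for PLxSB minus SBxSB, −0.61 for SBxPL minus PLxPL, −0.42 for PLxSB minus PLxPL and −0.21 for SBxSB minus PLxPL.

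The variability of igdcc3 between embryos at 150 τs was high for its expression level. The local coefficient of variation (LCV) ranks a gene's coefficient of variation (CV) among the 500 genes nearest to it in mean expression, from 0 for the least to 100 for the most variable. igdcc3 missed the minimum mean of 100 normalized reads set for all 8 groups. With a minimum of 10 in the 4 groups at 150 τs, chosen after seeing its counts, its LCV was 97.0 in SBxPL (CV 58.5%), 97.0 in PLxSB (CV 45.7%), 99.8 in SBxSB (CV 213%) and 93.6 in PLxPL (CV 36.04%). Without embryos B and C of family 3, the LCV of SBxSB was 98.0 (CV 52.1%). Taken around the family means instead of the group mean, the LCV stayed high in SBxPL (98.2), PLxSB (97.8) and SBxSB (99.8), and was 53.4 in PLxPL. Around the group means, LOC111950271 and LOC111956165 had LCVs of 93.6 to 99.8 in the same 4 groups. At 200 τs igdcc3 was not ranked. LOC111950271, which met the minimum of 100, then had 79.6 in SBxPL, 54.6 in PLxSB, 90.4 in SBxSB and 8.8 in PLxPL.

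Both igdcc3-like genes had the same shape over time and the same high embryos. LOC111950271 ranged from 4.94 to 10.1 CPM at 200 τs (median 7.06) and from 51.7 to 1139 CPM at 150 τs (median 105). LOC111956165 ranged from 0.195 to 1.33 CPM at 200 τs (median 0.691) and from 5.10 to 244 CPM at 150 τs (median 10.002). Neither gene overlapped between times. Both fell at 200 τs, with 200 minus 150 τs log2 differences of −4.27 (SE 0.18, adjusted p = 1.39e-33 by edgeR) for LOC111950271 and −4.51 (SE 0.26, adjusted p = 3.06e-25 by edgeR) for LOC111956165, beside the 69.3% of genes that passed in this comparison. Each was lower at 200 τs in 12 of 12 families. How many of all genes separate the times, or fall in every family, was not counted.

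Between the cross types, the igdcc3-like genes passed the test at 150 τs with the high embryos included and not without them. The study picked this pair from these embryos, so the calls are not independent evidence of their direction. In SBxPL minus SBxSB, where 0.159% of all genes passed, LOC111950271 differed by −1.45 (SE 0.30, adjusted p = 0.0124) and LOC111956165 by −2.05 (SE 0.40, adjusted p = 0.00578), both by edgeR. In PLxSB minus SBxSB, where 0.0447% passed, LOC111956165 differed by −1.79 (SE 0.39, adjusted p = 0.0648, and 0.165 with the letter as a replicate block), and LOC111950271 did not pass (−1.24, SE 0.30, adjusted p = 0.130). In SBxSB minus PLxPL, where 0.0372% passed, LOC111950271 differed by 1.45 (SE 0.30, adjusted p = 0.0503) and LOC111956165 by 2.05 (SE 0.40, adjusted p = 0.0220). Without embryos B and C of SBxSB family 3, SBxSB minus PLxPL gave 0.06 for LOC111950271 and 0.11 for LOC111956165 (adjusted p = 1 for both by edgeR), SBxPL minus SBxSB gave −0.06 and −0.11 (adjusted p = 1 for both by edgeR), and neither passed in these 3 comparisons when the siblings were summed and families served as replicates, or when only the libraries compared were fitted. Neither gene passed between a hybrid and PLxPL at 150 τs, where 0.124% of genes passed for SBxPL and 0.0223% for PLxSB. Neither passed at 200 τs, where 0.0794% of genes passed for SBxPL minus SBxSB, 4.3% for PLxSB minus SBxSB, 0.154% for SBxPL minus PLxPL, 0.38% for PLxSB minus PLxPL and 17.6% for SBxSB minus PLxPL.

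The 3 genes moved by unequal factors in the high embryos. Relative to the median of the other 7 SBxSB embryos at 150 τs, igdcc3 was 23.1-fold higher in embryo C and 2.14-fold higher in embryo B. LOC111950271, with 1139 CPM in C and 689 CPM in B, was 10.6-fold and 6.43-fold higher, and LOC111956165, with 244 CPM in C and 63.4 CPM in B, was 22.6-fold and 5.87-fold higher. Sibling A of this family had 166 CPM of LOC111950271 and 16.3 CPM of LOC111956165, within the range of the other embryos at 150 τs for both genes. Of the reads assigned to any of the 3 genes, igdcc3 took 5.75% in embryo C (95% Wilson interval 5.46 to 6.06%), 1.03% in embryo B (0.870 to 1.22%) and 2.84% in embryo A (2.31 to 3.48%). In the other 35 embryos than C at 150 τs, this share ranged from 1.01 to 3.17% with a median of 2.25%. Embryo C was also the lowest in reads of LOC111950271 per read of LOC111956165, with a ratio of 4.67 against 6.81 to 14.3 in the others.

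**Figure D2:**
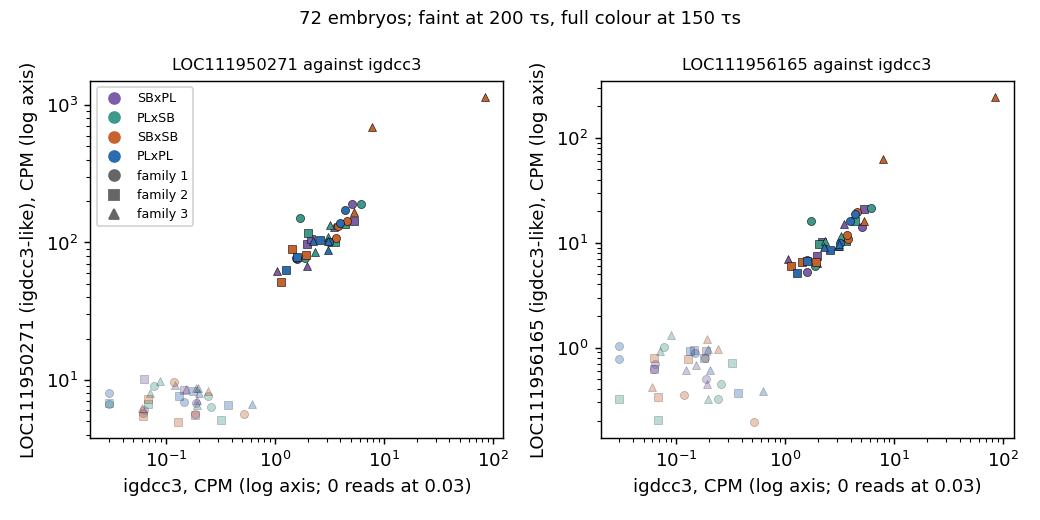
Level of each igdcc3-like gene against that of igdcc3 in 72 embryos (TMM-normalized CPM, log axes), with faint symbols for 200 τs and full colours for 150 τs; colour marks the cross type and shape the family. The 150 τs embryos lie along a line that ends in embryo C of SBxSB family 3 (84.5 CPM of igdcc3). Embryo B of that family lies above the line in both genes.

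Among all genes with a mean of at least 1 CPM, the igdcc3-like genes had the highest Pearson's r with igdcc3 over the 72 embryos and at 150 τs. Across the 72 embryos, Pearson's r of log2 CPM was 0.95 for LOC111950271 (Spearman's rho 0.85) and 0.94 for LOC111956165 (rho 0.84), and the next 8 genes had r from 0.92 to 0.94. These include sp8 (r = 0.93), a zinc finger transcription factor of limb and brain development, and LOC112068465 (r = 0.94). By rho, genes such as LOC111966752 (0.88), LOC111958855 (0.88) and LOC111964660 (0.87) ranked above both igdcc3-like genes. Embryos of the 2 times form separate clusters, so these values mainly restate the difference between times. Within the 36 embryos at 150 τs, the same pair came first, with r = 0.93 (rho 0.88) for LOC111956165 and r = 0.90 (rho 0.86) for LOC111950271, followed by LOC112068465 (r = 0.85) and sp8 (r = 0.81). Without embryos B and C, r was 0.85 for LOC111956165, 0.85 for LOC111950271, 0.72 for sp8 and 0.61 for LOC112068465. The 36 points share families, and reads placed on the wrong copy would also raise r among the 3 genes. At 200 τs, r with igdcc3 was −0.18 for LOC111950271 and −0.24 for LOC111956165, and no gene exceeded 0.58, at 0 to 8 igdcc3 reads.

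sp8 had 66.4 CPM in embryo C and 69.1 CPM in embryo B of SBxSB family 3, that of B the highest of the 36 at 150 τs, where the median was 40.1 CPM. Its median at 200 τs was 17.8 CPM. The opposite pattern was that of neurod6, a transcription factor of differentiating neurons, with r = −0.96 over 72 embryos and −0.87 at 150 τs. neurod6 had 0.499 CPM in embryo C, the lowest of the 36, and 1.38 CPM in embryo B, beside a median of 3.23 CPM at 150 τs and 13.3 CPM at 200 τs. LOC111962187 was likewise at its lowest in embryo C (0.312 CPM) and low in B (1.56 CPM), with medians of 11.7 CPM at 150 τs and 322 CPM at 200 τs. As sp8, neurod6 and LOC111962187 were picked by r over embryos that include B and C, their values there are no separate observation. Without B and C, r at 150 τs was −0.73 for neurod6 and −0.77 for LOC111962187.

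Embryos with more igdcc3 at 150 τs lay further from the 200 τs embryos in the rest of the transcriptome. Each embryo was placed on the line from the mean of 150 τs (0) to the mean of 200 τs (1) by 29445 other genes, with its own family left out of both means and the 3 igdcc3 genes left out throughout. Positions at 150 τs ranged from −0.40 to 0.18 with a median of 0.03. The lowest was embryo B of SBxSB family 3 (−0.40), then came embryo C (−0.35) and PLxPL family 1 A (−0.24), and the next was at −0.10. The position correlated with log2 igdcc3 at r = −0.75 (rho −0.72) over the 36 embryos and at r = −0.64 (rho −0.67) without embryos B and C, which are also the 2 farthest from the median position. Within the cross types, r was −0.64 in SBxPL, −0.56 in PLxSB, −0.80 in SBxSB and −0.69 in PLxPL, over 9 embryos each. These are descriptions over embryos that share families and libraries, and the part of position in the igdcc3 differences was not tested. PLxPL family 1 A, next after embryos B and C on this line at 150 τs, had 4.39 CPM of igdcc3, within the range of the other embryos. At 200 τs, where igdcc3 had few reads, its relation to position had r = −0.15 (rho −0.23). The lowest positions at that time were those of embryos C (0.58) and A (0.63) of SBxSB family 3, with 0.0603 and 0.243 CPM of igdcc3.

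**Figure D3:**
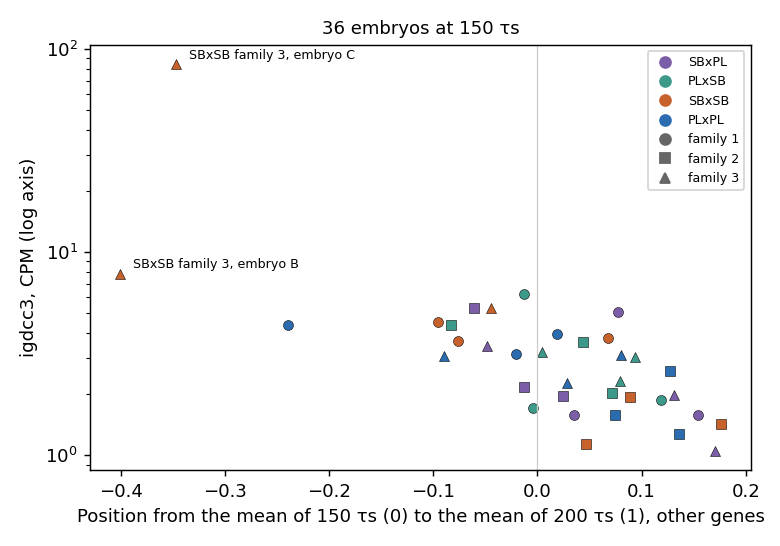
igdcc3 level (TMM-normalized CPM, log axis) against the position of each of the 36 embryos at 150 τs between the mean of 150 τs (0) and the mean of 200 τs (1) in 29445 other genes; colour marks the cross type and shape the family. Embryos C and B of SBxSB family 3 lie farthest to the left, at −0.35 and −0.40, with 84.5 and 7.84 CPM.

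Embryos B and C also stood apart in part of the genes listed for the p53 pathway. This pathway is switched on by DNA damage and other cellular stress and acts through cell cycle arrest and cell death. The study listed 5 of the genes named here from these same embryos, so their counts are not independent evidence. Of the 11 genes found from the p53 list, 6 were higher in embryo C than in each of the 34 other embryos at 150 τs, and the same number were in embryo B. The study had listed all of these 6 but mdm2. The share of all genes that stood out in this way was not counted, so the count of 6 cannot be read as a trait of the pathway. B and C were also the embryos farthest from the median position on the line between times. mdm2, which encodes the ubiquitin ligase that p53 induces and that degrades it, had 49.7 CPM in C and 58.9 CPM in B, against 7.68 to 19.3 CPM in the 34 others. LOC112069817, annotated as cyclin-G1-like, had 304 CPM in C and 348 CPM in B, against 54.3 to 86.7 CPM. LOC111980339, annotated as TNFRSF19-like, had 35.8 CPM in C and 31.8 CPM in B, against 0.428 to 4.26 CPM. LOC111951066, annotated as TNFRSF19, and the ribosomal protein S27-like genes LOC111976118 and LOC111952141 were the other 3. mdm4, an inhibitor of p53, had 14.8 CPM in C and 14.0 CPM in B, below the 18.9 to 28.8 CPM of the others. The 4 remaining members, ddb2, tp53inp1, xpc and zmat3, had values in B and C within the range of the others.

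In SBxSB minus PLxPL at 150 τs, 5 of the 11 p53 genes passed the test as higher and none as lower, with a median log2 difference of 0.66, where 0.0273% of all genes passed as higher. These 5 were LOC111980339 (2.87, SE 0.53, adjusted p = 0.0199 by edgeR), LOC111951066, LOC111976118, LOC111952141 and LOC112069817, the 5 that the study listed. Genes without a symbol could enter the p53 list only by a name in the study's tables. Its counts at 150 and at 200 τs therefore cannot be weighed against the shares of all genes. In this comparison at 150 τs, none of the members found by symbol passed, the lowest adjusted p being 0.791 (mdm2, by edgeR). With the letter as a replicate block, 3 of the 5 passed, and LOC111976118 (adjusted p = 0.114 by edgeR) and LOC112069817 (adjusted p = 0.135 by edgeR) did not. None passed with siblings summed, with only the libraries compared, or without PLxPL family 1 or PLxPL family 2. Without embryos B and C, none of the 5 passed (adjusted p = 1 by edgeR, log2 differences 0.11 to 0.37), and none had an unadjusted p under 0.05. In SBxPL minus SBxSB, 5 of the 11 passed as lower, where 0.0521% of all genes did, and in PLxSB minus SBxSB, 2 passed as lower, where 0.0322% did. None of these passed without embryos B and C, with siblings summed or with only the libraries compared. Between a hybrid and PLxPL at 150 τs, none passed by edgeR, and none had an unadjusted p under 0.05. In SBxSB minus PLxPL at 200 τs, 6 of the 11 passed as higher, where 8.7% of all genes did, and in PLxSB minus SBxSB 3 passed as lower, where 1.25% did. The 6 were the same 5 listed genes and ddb2 (adjusted p = 0.0895 by edgeR). The 3 were LOC111980339, LOC111951066 and ddb2. The study listed those 5 genes from siblings of these embryos, so their calls at 200 τs are not independent evidence. With siblings summed the counts at 200 τs were 0 and 1, and without SBxSB family 3 they were 1 and 1. At 150 τs, sibling A of SBxSB family 3, with 5.31 CPM of igdcc3, had 11.998 CPM of mdm2 and 60.0 CPM of LOC112069817. Both were the lowest of the SBxSB embryos at that time. At 200 τs, embryos A and C of the same family had 26.2 and 25.1 CPM of mdm2, against 9.06 to 12.9 CPM in the other 7 SBxSB embryos, and 9.89 and 11.5 CPM of LOC111980339, against 0.449 to 1.67 CPM. Their igdcc3 levels were 0.243 and 0.0603 CPM, against 0.0618 to 0.520 CPM in the other 7. At 150 τs without B and C, r with log2 igdcc3 was 0.17 for mdm2 and −0.06 for LOC112069817. The part of these genes in the igdcc3 values was not tested.

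**Figure D4:**
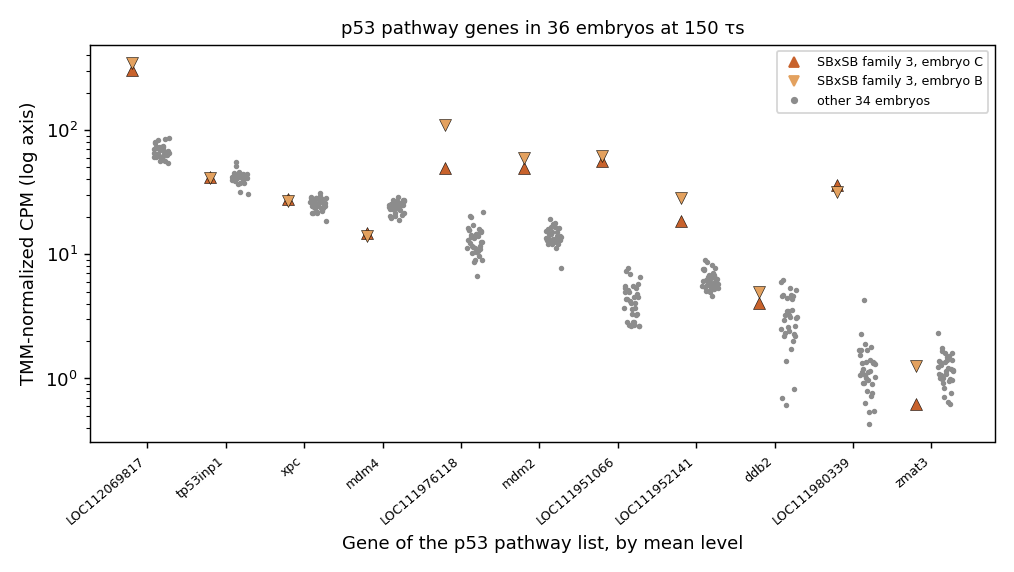
Level of the 11 genes of the p53 list in the 36 embryos at 150 τs (TMM-normalized CPM, log axis), ordered by mean; triangles mark embryos C and B of SBxSB family 3 and dots the other 34. In 6 of the 11 genes, both marked embryos lie above all dots, and in mdm4 both lie below them.

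Few of the ligands and partner receptors listed for the DCC subgroup could be matched by symbol, and none is shown here to bind igdcc3. Those found were ntn4 (netrin-4, a secreted guidance factor) and rgmb (a repulsive guidance molecule, ligand of neogenin). ntn4 was lower at 200 τs by a log2 difference of −0.28 (SE 0.05, adjusted p = 4.85e-06 by edgeR), and rgmb differed by −0.03 (SE 0.06, adjusted p = 0.654 by edgeR). igf2bp3, an RNA-binding protein gene of early development and a let-7 target in mammals, was lower at 200 τs by −0.50 (SE 0.08, adjusted p = 3.07e-08 by edgeR). None of these 3 passed in a comparison of cross types at 150 τs. At 200 τs, rgmb passed as higher in PLxSB than in SBxSB (0.36, SE 0.12, adjusted p = 0.0742 by edgeR) and lower in SBxSB than in PLxPL (−0.37, SE 0.12, adjusted p = 0.0265 by edgeR), and neither call held without SBxSB family 3.

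The small RNA libraries of the same embryos gave the levels of let-7. Left out was 1 PLxSB library at 200 τs, whose counts summed to 127822 over all entries, the next lowest sum being 13928940. The entries are microRNA sequences of many species, and near-identical entries can hold the same reads. These sums are therefore not numbers of separate reads, which were not counted. CPM of small RNA is relative to such sums, and the shares of entries that passed can include the same reads several times. For each of let-7a to let-7j, the mature entry with the most reads was taken, and all 10 were higher at 200 than at 150 τs by edgeR's test, in which 70.7% of the 11020 entries passed and 36% passed as higher. The increase ran from 0.16 (SE 0.06, adjusted p = 0.0243) for let-7c, which no longer passed without SBxSB family 3, to 2.16 (SE 0.10, adjusted p = 2.05e-29) for let-7e on the log2 scale. let-7e had 2.99 to 8.85 CPM at 200 τs (median 5.09) and 0.449 to 2.33 CPM at 150 τs (median 1.02), with no overlap between times. The share of all entries without overlap was not counted. let-7a had 27.7 to 61.1 CPM at 200 τs (median 37.6) and 11.8 to 35.4 CPM at 150 τs (median 22.4), with overlap. The entries for let-7a and let-7j differed by at most 7 reads in a library and are not separate measurements. None of the 10 passed by edgeR between SBxSB and PLxPL, at 150 τs, where 3.24% passed, or at 200 τs, where 11.2% did. At an unadjusted p under 0.05 there were 1 of 10 at 150 τs and 0 of 10 at 200 τs, and none passed by DESeq2, which gave an adjusted p for 5 of them at 150 τs.

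At 150 τs, let-7a was lowest in the embryos with the most igdcc3. It had 11.8 CPM in embryo B and 15.8 CPM in embryo C of SBxSB family 3, the lowest of the 36, against 15.9 to 35.4 CPM in the 34 others. This did not hold for each entry: let-7e had 1.02 CPM in B and 1.33 CPM in C, beside a median of 1.02 CPM at 150 τs. let-7i had 0.908 CPM in B and 1.21 CPM in C, beside a median of 1.32 CPM. Across the 36 embryos, log2 let-7a and log2 igdcc3 had r = −0.62 (rho −0.66), and r was −0.61 (rho −0.59) without embryos B and C. let-7i had r = −0.41 (rho −0.56) and let-7c r = −0.42 (rho −0.51), and the lowest r of the 10 entries were those of let-7a and the near-identical let-7j. For the rest, r was −0.46 for let-7h, −0.37 for let-7d, −0.22 for let-7g, −0.15 for let-7e, 0.06 for let-7f and 0.08 for let-7b. Position on the line between times moved with both measures, and its part in this relation was not tested. At 200 τs, r was 0.18 for let-7a, and over the 10 entries it ranged from −0.22 for let-7b to 0.50 (rho 0.40) for let-7i.

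miR-34a, a microRNA that p53 induces in mammals, stood out in the same embryos as the p53 genes. It had 4.70 CPM in embryo C and 4.31 CPM in embryo B of SBxSB family 3, against 0.0365 to 0.627 CPM in the 34 others at 150 τs, from at most 283 reads. At 200 τs, miR-34a had 1.53, 0.680 and 2.63 CPM in embryos A, B and C of this family, beside a median of 0.407 CPM at that time. Their igdcc3 levels were 0.243, 0.189 and 0.0603 CPM. SBxSB exceeded PLxPL at 150 τs by 2.16 (SE 0.46, adjusted p = 0.00389 by edgeR), and by 0.50 (adjusted p = 0.643 by edgeR) without embryos B and C. The study had named the miR-34 family from these same embryos, so the call is not independent evidence. In the study, the family was higher in SBxSB than in both hybrids, and its large difference from PLxPL was not significant. Across the 36 embryos at 150 τs, miR-34a and igdcc3 had r = 0.62 but rho −0.01, and r was −0.19 without embryos B and C. The miR-34b entry differed from miR-34a by at most 3 reads in a library and is not a separate measurement.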

How the data were processed

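Whole embryos gave 72 mRNA and 72 small RNA libraries. The authors aligned mRNA reads with STAR to a Salvelinus genome and counted read pairs per gene with featureCounts, without stated use of strand, and quantified small RNA against miRBase with miRDeep2. The deposited values are raw counts for both. Of the small RNA tables, 72 further columns were not used.

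Groups follow the labels. igdcc3, the lists and the tests were chosen with earlier results of these data known. Genes with fewer than 10 reads in all libraries (2122) were left out. edgeR 4.0.16 (R 4.3.3) was fitted to TMM-normalized counts of all 8 groups by the quasi-likelihood test, with an adjusted p under 0.1 as the threshold, and with sequencing batch as a term for small RNA only. Log2 CPM used a prior count of 2. The fits were tested on simulated counts. DESeq2 1.42.0 was an alternative. Intervals cover counting error only.

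Named were igdcc3, genes annotated as igdcc3 or igdcc4, called or extreme members of the fixed lists, the genes most like igdcc3 in Pearson's r, and for let-7a to let-7j and miR-34a to miR-34c the mature entry with the most reads (miR-34c had none). Deviations of mRNA libraries from their group means had a mean r of 0.0156 between embryos of the same letter and −0.0128 between those of different letters, below the 0.1 required to treat letters as pairs. No sequence is shown for igdcc3, since no genome of the build of the counts was used here.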

Additional observations from a re-analysis of the deposited data

Results flagged for a closer look

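Of 112 groups of 9 embryos examined, in 10 the highest or lowest embryo was separated from its nearest neighbour by a gap above Dixon's 95% critical value. That value is set for normally distributed data, and the gaps were taken on CPM without a log scale. The number of groups that chance alone would flag is therefore not known here. These groups include the values of igdcc3, which was singled out on them, and genes the study picked from these embryos, so for those the gap is a description and no test. igdcc3 had 84.5 CPM in embryo C of SBxSB family 3 at 150 τs (next 7.84 CPM), and LOC111956165 had 244 CPM in the same embryo (next 63.4 CPM). At 200 τs, igdcc3 had 0.520 CPM in embryo A of SBxSB family 1 (next 0.243 CPM), from 8 reads.

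Among the p53 genes, LOC111976118 had 109 CPM in embryo B of SBxSB family 3 at 150 τs, and LOC111952141 had 17.1 CPM in embryo C of this family at 200 τs. Embryo C of SBxPL family 1 at 150 τs was separated in LOC111952141 (8.64 CPM) and LOC111980339 (4.26 CPM), and had 5.06 CPM of igdcc3. zmat3 was highest in SBxSB family 1 A at 150 τs (2.34 CPM). ddb2 was lowest in SBxSB family 1 C at 200 τs (1.24 CPM), and tp53inp1 in PLxSB family 3 C at 150 τs (30.4 CPM).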

How the results depend on the processing

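igdcc3 was lower at 200 than at 150 τs under all settings run. The log2 difference between times ran from −4.84 to −4.06 with 1 family left out in turn. Its differences between cross types at 150 τs depended on 1 family. Leaving out 1 family in turn gave log2 differences of −0.032 to 2.69 for SBxSB minus PLxPL, −2.76 to −0.044 for SBxPL minus SBxSB and −2.50 to 0.19 for PLxSB minus SBxSB. Settings chosen after seeing the data gave 0.40, −0.48 and −0.24 without embryo C of SBxSB family 3, and 0.15, −0.22 and 0.013 without B and C. With 1 family left out, LOC111950271 ranged from −0.065 (without SBxSB family 3) to 1.91 for SBxSB minus PLxPL and from −1.91 to 0.064 for SBxPL minus SBxSB, and LOC111956165 from −0.0075 to 2.56, from −2.55 to 0.0063 and, for PLxSB minus SBxSB, from −2.27 to 0.26, with 0.15 without B and C.

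Counts of genes called by edgeR at 150 τs moved by over 1.5 times as follows. For SBxSB minus PLxPL (15), 8 with the replicate block, 1 with siblings summed, 0 with only the libraries compared (1252 at an unadjusted p under 0.05), 25 by DESeq2, 3 without embryo C, 0 without B and C (1198 at an unadjusted p under 0.05), and 0 (without SBxSB family 3, 1364 at an unadjusted p under 0.05) to 37 leaving out families. For SBxPL minus SBxSB (64), 35 with a mean of at least 1 CPM, 0 summed, 3 with only the libraries compared, 32 by DESeq2, 37 without B and C, and 0 (without SBxPL family 1, 1753 at an unadjusted p under 0.05) to 127. For PLxSB minus SBxSB (18), 28, 0, 3 and 44 in the same order of settings, 6 without C, 5 without B and C, and 5 to 105. For SBxPL minus PLxPL (50), 28 with at least 1 CPM, 24 with the block, 0 summed, 0 with only the libraries compared, 14 by DESeq2, and 0 (without SBxPL family 1, 1265 at an unadjusted p under 0.05) to 126. For PLxSB minus PLxPL (9), 5 without a filter, 3 with at least 1 CPM, 0 summed, 0 with only the libraries compared, 14 by DESeq2, and 2 to 13. At an unadjusted p under 0.05, the 4 summed fits with 0 calls had 1501, 1738, 1130 and 1228 genes in the order given, and those with only the libraries compared had 1750 for SBxPL minus PLxPL and 1868 for PLxSB minus PLxPL. Chance alone would put about a 0.05 share of the genes tested at that level. The unadjusted numbers given here are therefore by themselves no sign of remaining differences.

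At 200 τs, SBxSB minus PLxPL (7075) gave 2633 summed and 2659 to 7942 leaving out families. SBxPL minus SBxSB (32) gave 4 summed, 81 by DESeq2 and 9 to 3598. PLxSB minus SBxSB (1735) gave 2908 with library totals, 376 summed and 728 to 1887. SBxPL minus PLxPL (62) gave 104 with library totals, 99 with the replicate block, 4 summed, 112 by DESeq2 and 16 to 428. PLxSB minus PLxPL (153) gave 97 with library totals, 2 summed, 46 with only the libraries compared, 266 by DESeq2 and 41 to 406. The miRNA counts for SBxSB minus PLxPL were, without the batch term (no replicate block), 51 at 150 and 233 at 200 τs, with siblings summed 719 and 562, and 91 at 150 τs without B and C (49 to 568 at 150 and 909 to 1870 at 200 τs leaving out families). The cause of these moves was not tested.

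Of the 10 genes most like igdcc3, over 72 embryos 3 remained with rho and 6 with family means. At 150 τs, 6 remained with rho, 6 without the 2 farthest embryos, 5 with family means and 5 to 10 leaving out families, and at 200 τs 4, 4, 0 and 4 to 9, and 6 with deviations from group means. The LCV in PLxPL at 150 τs was 53.4 around family means. With the replicate block, LOC111976118 (adjusted p = 0.114 by edgeR), LOC112069817 (0.135) and, for PLxSB minus SBxSB, LOC111956165 (0.165) no longer passed.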
